A study of Homo sapiens with 9 samples.

Results

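The genes of the cell cycle and of DNA replication were examined in HepG2 cells with and without a guide RNA against KEAP1. The set held 52 genes named by symbol, and its rows were found in the count table through their Entrez numbers. All 52 were present among the 11746 features of the table that carry such a number, and all 52 had enough reads to be tested among 11064 features. By role they were divided into 21 S phase genes, 5 genes of the G1/S transition and 26 mitotic genes. HepG2 is a human liver cancer line that is used as a model of hepatocytes. The cells carried the lentiCRISPRv2 vector, which delivers the nuclease Cas9 and a guide RNA together. The control group, sgCtrl, carried the guide sgAAVS168 against AAVS1, a site in the genome at which a cut is held to be harmless. The other groups, sgKeap1-1 and sgKeap1-2, carried either of 2 guides against KEAP1. All groups thus shared Cas9, the vector and puromycin selection, and none of the libraries analysed here came from siRNA-treated cells. The methods describe selected, transduced cells and no isolation of clones, so a group may hold edited and unedited cells side by side. Each group had 3 libraries, numbered 1 to 3, of RNA taken 48 h after seeding. The labels do not say whether the 3 libraries of a group came from separate cultures, and p-values then measure only the spread between these libraries.

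Cells enter the cycle when D cyclins, with their kinases, release the E2F factors from the retinoblastoma protein, and E2F factors then switch on the genes that license and copy DNA. The genes of mitosis are switched on later, through MYBL2 and FOXM1 acting at promoter elements called CHR (cell cycle genes homology region), often next to a CCAAT box that binds NF-Y. CDK inhibitors, the products of genes such as CDKN1A and CDKN2A, hold the kinases back. KEAP1 marks the transcription factor NRF2 for destruction, and NRF2 switches on antioxidant genes through the antioxidant response element (ARE).

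The promoters of the members show this division in their letters. The RefSeq promoter table (GRCh38.p14) gives 250 bases before to 50 after each annotated start, and it held 41 of the 52 members, with some genes at more than 1 start. Searched on both strands, the E2F letters were TTTCCCGC, TTTCGCGC, TTTGCCGC or TTTGGCGC, the CHR letters TTTGAA, the CCAAT letters CCAAT and the ARE letters TGACNNNGC. E2F letters were found for 12 of 19 S phase genes (63.2%) and for 2 of 20 mitotic genes (10%), against 3.99% of the 27305 genes in the table. CHR letters were found for 1 S phase gene (RRM1) and for 13 of 20 mitotic genes (65%), against 18.2% of all genes. CCAAT letters were found for 13 of 19 S phase genes (68.4%) and 17 of 20 mitotic genes (85%), against 39.7% of all genes. ARE letters were found for 5 of 19 S phase genes (26.3%) and 3 of 20 mitotic genes (15%), against 16.1% of all genes. A match describes the letters of the window and does not show that a factor binds there. The 4 promoters that follow are those of E2F1 and CCNA2, whose transcripts fell with sgKeap1-2, and of MCM3 and TOP2A, whose transcripts differed between the replicate numbers. Each runs 5′ to 3′ over the 250 bases before the start, all on the minus strand, with the E2F, CHR and CCAAT letters of either strand in capitals.
E2F1 (chr20:33686386-33686635): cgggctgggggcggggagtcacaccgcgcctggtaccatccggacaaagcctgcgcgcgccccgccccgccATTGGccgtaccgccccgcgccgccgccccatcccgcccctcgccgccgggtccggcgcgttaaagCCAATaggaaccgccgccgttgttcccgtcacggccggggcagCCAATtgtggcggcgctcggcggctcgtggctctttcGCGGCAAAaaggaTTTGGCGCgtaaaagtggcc
MCM3 (chr6:52284743-52284992): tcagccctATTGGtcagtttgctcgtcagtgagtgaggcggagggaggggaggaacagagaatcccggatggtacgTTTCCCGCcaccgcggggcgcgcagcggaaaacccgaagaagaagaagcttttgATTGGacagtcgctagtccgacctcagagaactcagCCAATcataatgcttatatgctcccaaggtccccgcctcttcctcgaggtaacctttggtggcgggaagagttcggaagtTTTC
CCNA2 (chr4:121823884-121824133): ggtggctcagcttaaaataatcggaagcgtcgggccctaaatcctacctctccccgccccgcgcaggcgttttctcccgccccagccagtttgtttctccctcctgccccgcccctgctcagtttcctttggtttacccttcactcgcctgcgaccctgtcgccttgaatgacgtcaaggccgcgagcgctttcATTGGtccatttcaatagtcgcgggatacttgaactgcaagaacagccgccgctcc
TOP2A (chr17:40417897-40418146): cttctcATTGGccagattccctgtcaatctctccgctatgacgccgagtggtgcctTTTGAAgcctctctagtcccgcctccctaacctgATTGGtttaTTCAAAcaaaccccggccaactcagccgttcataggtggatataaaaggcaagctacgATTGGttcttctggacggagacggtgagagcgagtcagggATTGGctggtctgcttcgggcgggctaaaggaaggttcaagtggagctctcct
The E2F1 promoter held a pair of E2F matches close to the start and 3 CCAAT matches. MCM3 held an E2F match far upstream and a further one that runs across the start, of which the last 4 capitals are the first letters. TOP2A held 2 CHR matches and 4 CCAAT matches and no E2F letters. CCNA2 held 1 CCAAT match and neither the E2F nor the CHR letters as searched.

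The libraries held 3051755 to 4793757 counted reads, with a median of 3809616. They were made with a kit that reads the 3′ end of polyadenylated transcripts, so the counts do not grow with transcript length. Values are counts scaled to the library size (CPM) after TMM scaling of the library sizes. Among the members, CCNE2 had the fewest reads, 7 to 22 per library, and the next lowest count was 21, for TTK. KEAP1, the targeted gene, had a CPM of 63.3, 89.2 and 85.3 in sgCtrl libraries 1 to 3, of 64.1, 62.5 and 53.4 with sgKeap1-1, and of 81.9, 85.6 and 73.9 with sgKeap1-2. Its groups overlapped with both guides, and the log2 fold change was -0.40 (SE 0.15) with sgKeap1-1 and 0.02 (SE 0.15) with sgKeap1-2, with adjusted p = 0.21 and 0.95 (edgeR quasi-likelihood test, Benjamini-Hochberg over all features tested). A count of transcript ends does not show whether the coding sequence was cut. The NRF2 targets NQO1, GCLM, GCLC, TXNRD1 and SLC7A11 rose with both guides, 5 of 5 measured (against 2.8% and 5.96% of all features called higher), by a median of 1.77 and 2.18 on the log2 scale. All 14 hepatocyte markers on the list were measured in all groups. In bulk RNA, fewer cells of a kind and less RNA per cell cannot be told apart.

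The libraries numbered 2 stood apart for these genes. In the sample descriptions, all libraries of 1 number carry the same prefix in the 3 groups, which reads like a date and is not explained there. For each library the log2 CPM was averaged over the 21 S phase genes. This mean was 6.39, 6.18 and 6.52 in sgCtrl libraries 1 to 3, 6.23, 5.41 and 6.39 with sgKeap1-1, and 6.00, 5.51 and 6.21 with sgKeap1-2. Over the 26 mitotic genes it was 6.47, 6.53 and 6.89 in sgCtrl, 6.44, 5.71 and 6.65 with sgKeap1-1, and 6.23, 5.65 and 6.41 with sgKeap1-2. In both KEAP1 guide groups library 2 was the lowest by a wide margin, whereas in sgCtrl it was the lowest for S phase genes only and lay between the others for mitotic genes. The sgKeap1-1 and sgCtrl groups overlapped for both roles. All 3 sgKeap1-2 libraries lay below the 3 sgCtrl libraries for mitotic genes, and for S phase genes the highest sgKeap1-2 library lay just above the lowest sgCtrl library. Counts of called members are therefore also given without the 3 libraries numbered 2, a choice made after their values were seen.

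**Figure D1:**
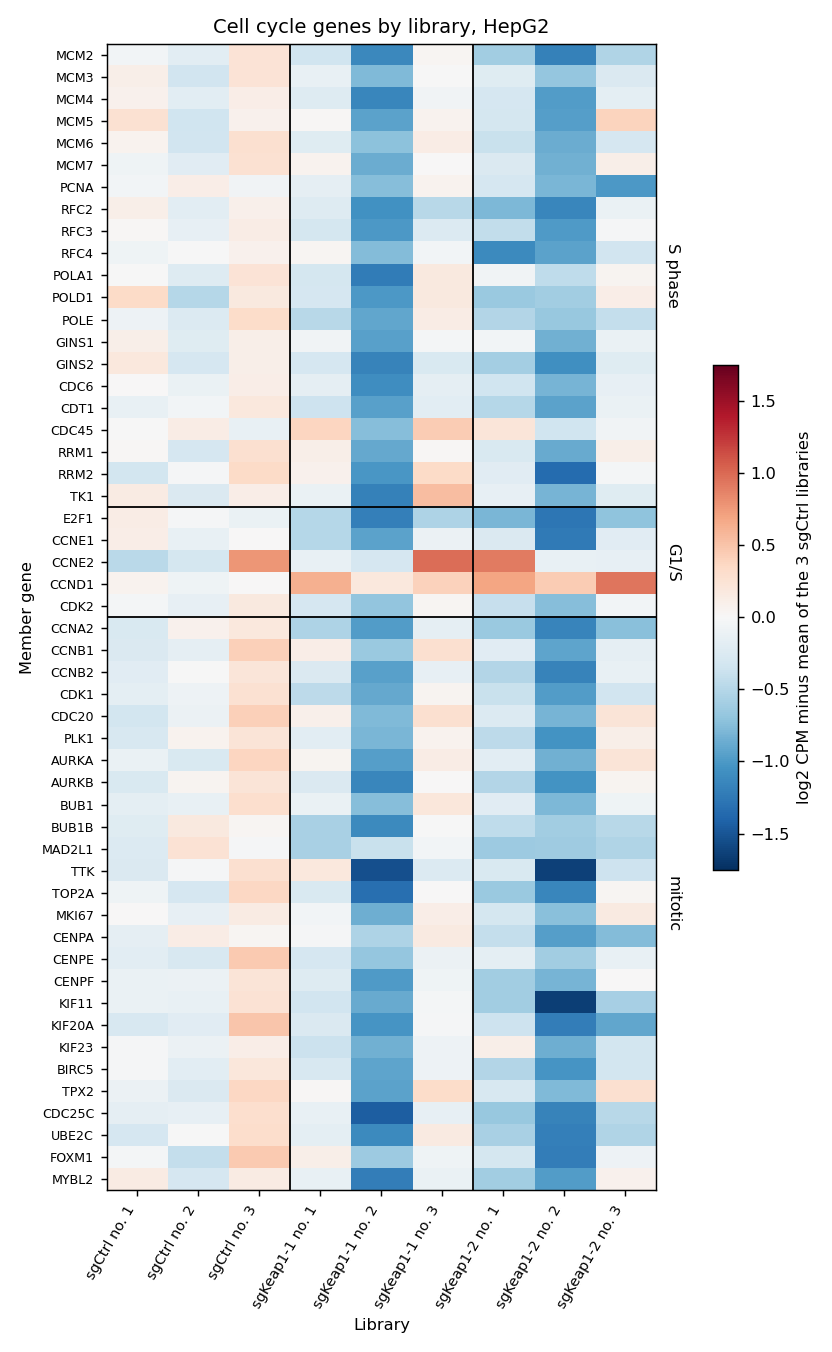
Heat map of the 52 members (rows, by role) in the 9 libraries (columns, by group), as log2 CPM minus the mean of the 3 sgCtrl libraries of the same gene. Library 2 of sgKeap1-1 and of sgKeap1-2 form blue columns through most S phase and mitotic rows, CCND1 is red in all 6 KEAP1 guide libraries and E2F1 is blue in all 6.

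**Figure D2:**
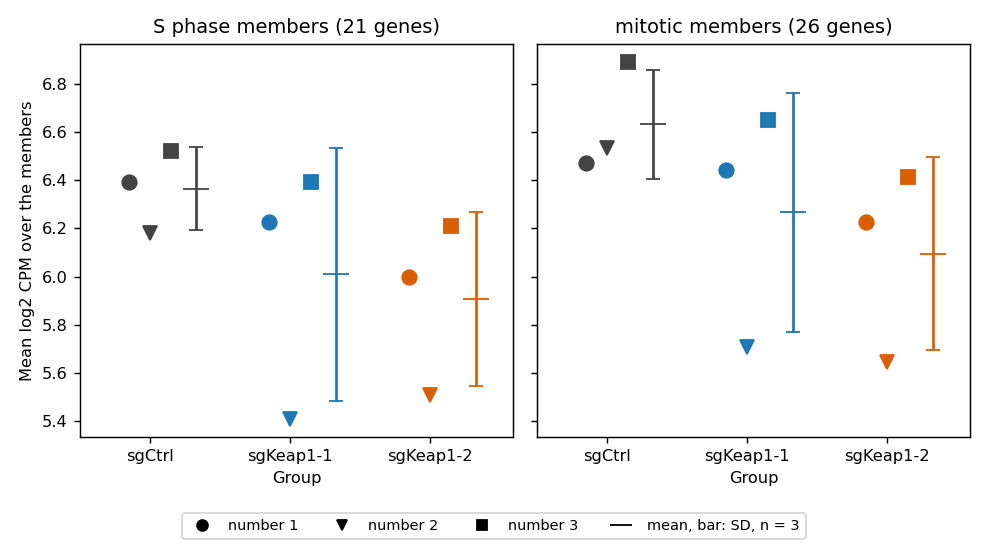
Mean log2 CPM over the 21 S phase genes (left) and the 26 mitotic genes (right) in each library, with circles, triangles and squares for the replicate numbers 1 to 3, and beside them the group mean with its SD (n = 3). The S phase means were 6.37 in sgCtrl, 6.01 with sgKeap1-1 and 5.91 with sgKeap1-2, and the SD of sgKeap1-1 (0.53) exceeded its distance from sgCtrl.

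The first comparison asked how these genes differed between each KEAP1 guide and the AAVS1 control. With sgKeap1-1, 49 of the 52 members had a log2 fold change below 0, against 50.1% of all features tested, yet 1 member passed an adjusted p of 0.05, against 4.2% of all features in either direction and 1.4% for lower calls. With sgKeap1-2, 50 of 52 lay below 0, against 51.7% of all features, and 6 members passed, 5 lower and 1 higher (11.5% of the members, against 10.8% of all features; for lower calls, 9.62% against 4.85%, and for higher calls, 1.92% against 5.96%). The direction was thus nearly uniform, while few single genes passed in this fit, which has no term for the replicate number. With the number as a block, 10 members passed with sgKeap1-1, against 8.83% of all features in that fit (9 lower, against 3.72%), and 29 with sgKeap1-2, against 17.7% (28 lower, against 8.57%). The median log2 fold change of the members was -0.36 with sgKeap1-1 and -0.45 with sgKeap1-2, and over all features tested it was -0.00 and -0.01. Genes of the same process vary together, so the 52 directions are not 52 separate observations. Both contrasts use the same 3 sgCtrl libraries. Without the libraries numbered 2, 0 members were called with sgKeap1-1, against 3.63% of all features. With sgKeap1-2, 4 were called (E2F1, CCND1, CCNA2 and MCM2), 7.69% of the members against 8.55% of all features.

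**Figure D3:**
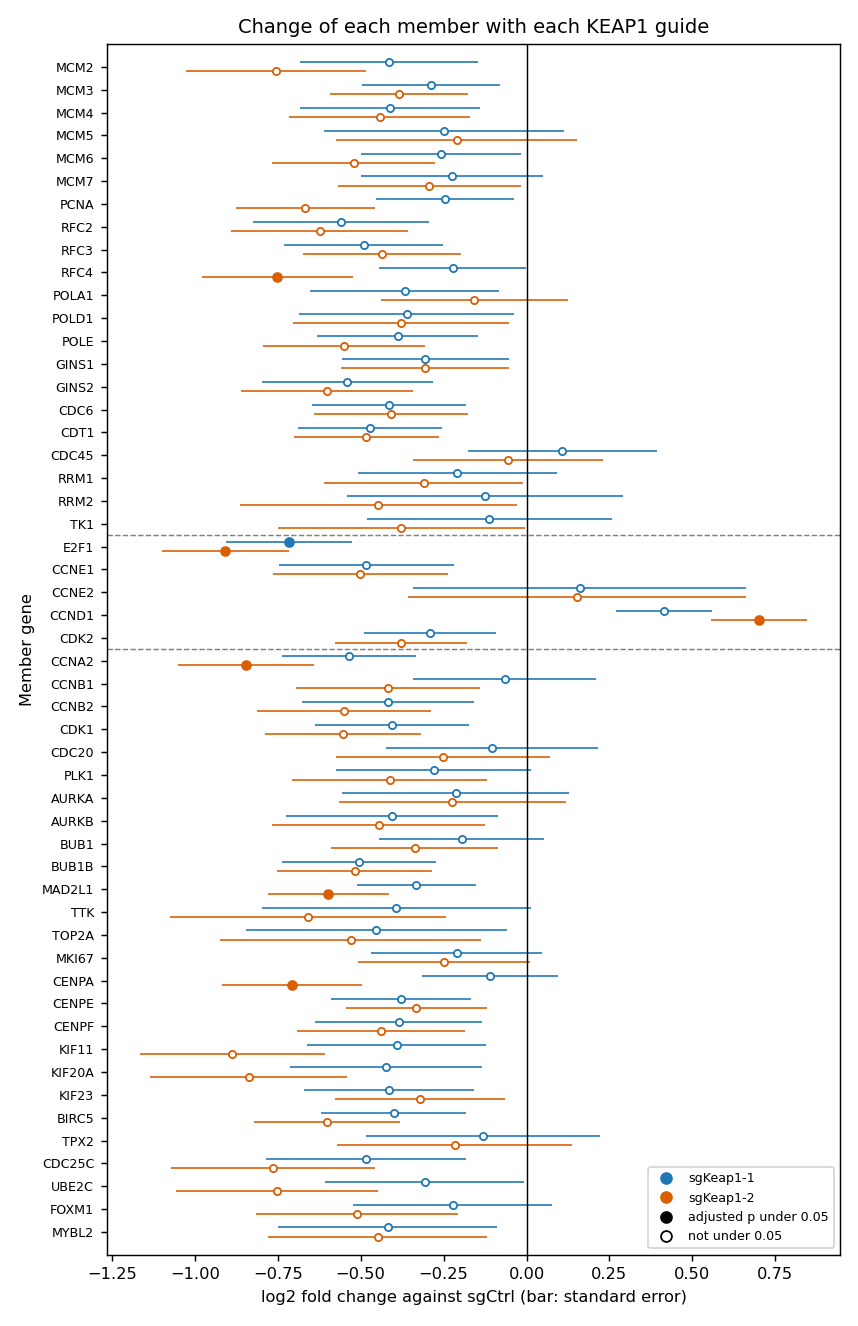
Log2 fold change of each member against sgCtrl with sgKeap1-1 (blue) and sgKeap1-2 (orange), with bars of 1 standard error and filled points where the adjusted p was under 0.05. Points left of the line at 0 are lower with the KEAP1 guide; CCND1 is the filled point on the right, at 0.70, and E2F1 is filled for both guides.

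The S phase genes encode the replicative helicase and its loaders, the clamp PCNA and its loader, the polymerases and the enzymes that supply nucleotides. With sgKeap1-1, 20 of 21 had a log2 fold change below 0 (median -0.31, or 0.809-fold) and 0 passed the test, with 1 at an unadjusted p under 0.05, against 6.63% of all features lower at that p. DESeq2 and limma-voom also called 0 of them, against 1.8% and 1.36% of all features called lower. With the replicate number as a block, 5 passed with sgKeap1-1 (CDT1, GINS2, MCM2, MCM4 and RFC3) and 12 with sgKeap1-2, that is 23.8% and 57.1% of the list, against 3.72% and 8.57% of all features called lower. With sgKeap1-2, 21 of 21 lay below 0 (median -0.44, or 0.739-fold) and 1 passed, 4.76% of the list against 4.85% of all features called lower. DESeq2 called 3 with sgKeap1-2 (MCM2, PCNA and RFC4; 14.3%, against 5.26%) and limma-voom 0 (against 4.65%). Without library 2 of the guide group itself, the S phase median was -0.07 with sgKeap1-1 and -0.23 with sgKeap1-2. The values in all 3 libraries lay below the lowest sgCtrl library for 4 genes with sgKeap1-1 (RFC2, RFC3, CDC6 and CDT1) and for 5 with sgKeap1-2 (MCM2, PCNA, RFC4, POLE and CDC6), that is 19% and 23.8% of the list, against 10.3% and 13.7% of all features.
RFC4, a subunit of the clamp loader, was the S phase gene that passed. Its CPM was 53.8, 56.5 and 59.7 in sgCtrl, 57.7, 33.6 and 54.7 with sgKeap1-1, and 26.2, 29.5 and 44.8 with sgKeap1-2. The sgKeap1-2 libraries all lay below sgCtrl, and library 1 was as low as library 2. RFC4 fell by 0.75 on the log2 scale with sgKeap1-2 (SE 0.23, adjusted p = 0.0486), and it passed the threshold in 7 of the 19 alternative settings (adjusted p from 0.00536 to 0.17).
PCNA, the sliding clamp that holds polymerases on DNA, had a CPM of 236, 265 and 234 in sgCtrl, of 219, 147 and 255 with sgKeap1-1, and of 200, 141 and 122 with sgKeap1-2. Library 3 of sgKeap1-2 was its lowest, unlike most members. The log2 fold change was -0.67 with sgKeap1-2 (SE 0.21, adjusted p = 0.0621, past the threshold with DESeq2 and with the replicate block). With sgKeap1-1 it was -0.25 (SE 0.21, adjusted p = 0.68).
The MCM2 to MCM7 proteins form the ring of the helicase. MCM2 had a CPM of 232, 210 and 281 in sgCtrl, of 188, 109 and 246 with sgKeap1-1, and of 157, 105 and 166 with sgKeap1-2. Only the sgKeap1-2 libraries were separate from sgCtrl. Its log2 fold change was -0.42 (SE 0.27) and -0.76 (SE 0.27) with the guides in turn, and the adjusted p was 0.55 and 0.12, or 0.0332 with DESeq2 for sgKeap1-2. MCM3 had a CPM of 400, 294 and 437 in sgCtrl, of 341, 217 and 370 with sgKeap1-1, and of 322, 233 and 312 with sgKeap1-2, and its groups overlapped with both guides (log2 fold change -0.29 and -0.38, SE 0.21 for each). MCM4 to MCM7 ranged from -0.21 to -0.52 with sgKeap1-2 and overlapped sgCtrl. With the replicate number as a block, MCM2, MCM3, MCM4 and MCM6 passed with sgKeap1-2.
RFC2 (another clamp loader subunit) and GINS2 (part of the helicase holoenzyme) had the largest S phase differences with sgKeap1-1. The CPM of RFC2 was 30.7, 25.2 and 30.4 in sgCtrl and 24.6, 13.7 and 20.5 with sgKeap1-1, just without overlap. Its log2 fold change was -0.56 (SE 0.27, adjusted p = 0.35). GINS2 had a CPM of 87.7, 63.0 and 82.5 in sgCtrl and of 62.8, 34.2 and 64.2 with sgKeap1-1, and the groups overlapped at 63.0 and 64.2 (log2 fold change -0.54, SE 0.26, adjusted p = 0.37). CDC45, which joins the helicase to the polymerase, was the 1 S phase gene above 0 with sgKeap1-1, at 0.11 (SE 0.28).

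Among the 5 genes of the G1/S transition, E2F1 and CCND1 moved in opposite directions. E2F1, a transcription factor of S phase genes, had a CPM of 125, 113 and 106 in sgCtrl, of 81.1, 50.1 and 78.9 with sgKeap1-1, and of 65.6, 47.6 and 70.5 with sgKeap1-2. All 6 KEAP1 guide libraries lay below the lowest sgCtrl library, and in both groups library 2 was the lowest. The mean CPM was 114.8 ± 9.81 (SD, n = 3) in sgCtrl, 70.0 ± 17.3 with sgKeap1-1 and 61.2 ± 12.1 with sgKeap1-2. E2F1 fell by 0.72 on the log2 scale with sgKeap1-1 (SE 0.19, adjusted p = 0.0498) and by 0.91 with sgKeap1-2 (SE 0.19, adjusted p = 0.00668). The call with sgKeap1-2 was kept in 19 of 19 alternative settings (adjusted p from 9.61e-05 to 0.0375), whereas the call with sgKeap1-1 was kept in 7 of 19 (0.00143 to 0.20). Without the libraries numbered 2, E2F1 was at -0.54 with sgKeap1-1 and at -0.75 with sgKeap1-2.
CCND1, cyclin D1, had a CPM of 306, 278 and 295 in sgCtrl, of 451, 333 and 387 with sgKeap1-1, and of 473, 398 and 558 with sgKeap1-2. All 6 KEAP1 guide libraries lay above the highest sgCtrl library. CCND1 rose by 0.70 on the log2 scale with sgKeap1-2, or 1.63-fold (SE 0.14, adjusted p = 0.00581), and kept that call in 19 of 19 alternative settings. With sgKeap1-1 its log2 fold change was 0.41 (SE 0.14, adjusted p = 0.15, or 0.0233 with the replicate number as a block). CCND1 was the 1 member called higher in any contrast.
The cyclin E genes and CDK2, the kinase they activate, did not pass in the fit without the replicate number. CDK2 had a CPM of 103, 95.6 and 118 in sgCtrl, of 86.2, 65.6 and 108 with sgKeap1-1, and of 79.7, 62.9 and 102 with sgKeap1-2, with overlapping groups (log2 fold change -0.29 and -0.38). With the replicate number as a block, CDK2 passed with sgKeap1-2 (adjusted p = 0.0298), and CDK2 and CCNE1 passed when both guides were joined. CCNE1 was at -0.48 and -0.50, and CCNE2, with few reads, at 0.16 and 0.15 with SE 0.50 and 0.51.

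The mitotic genes encode cyclins A and B, the kinases of mitotic entry, motors, kinetochore proteins and the spindle checkpoint. With sgKeap1-1, 26 of 26 had a log2 fold change below 0 (median -0.39, or 0.764-fold) and 0 passed (against 1.4% of all features called lower), with 2 at an unadjusted p under 0.05 (against 6.63%). DESeq2 and limma-voom also called 0 of them (against 1.8% and 1.36%). With sgKeap1-2, 26 of 26 lay below 0 (median -0.52, or 0.700-fold) and 3 passed, 11.5% of the list against 4.85% of all features called lower. DESeq2 called these and KIF11 (15.4%, against 5.26%), and limma-voom called CCNA2 alone (3.85%, against 4.65%). Without library 2 of the guide group itself, the mitotic median was -0.15 with sgKeap1-1 and -0.28 with sgKeap1-2. All 3 libraries lay below the lowest sgCtrl library for 0 mitotic genes with sgKeap1-1, against 10.3% of all features, and for 11 with sgKeap1-2 (42.3% of the list, against 13.7%). With the replicate number as a block, 3 mitotic genes passed with sgKeap1-1 (BIRC5, CCNA2 and TOP2A) and 14 with sgKeap1-2, that is 11.5% and 53.8% of the list, against 3.72% and 8.57% of all features called lower.
CCNA2, cyclin A, which acts from S phase to early mitosis, had a CPM of 90.1, 115 and 124 in sgCtrl, of 74.8, 55.3 and 97.0 with sgKeap1-1, and of 69.3, 48.5 and 65.2 with sgKeap1-2. The sgKeap1-2 libraries lay below sgCtrl, and the highest sgKeap1-1 library overlapped with the lowest sgCtrl library. CCNA2 fell by 0.85 on the log2 scale with sgKeap1-2, to 0.556-fold (SE 0.20, adjusted p = 0.0162). The call was kept in 17 of 19 alternative settings and lost without sgCtrl library 3 (-0.75, adjusted p = 0.0777) or sgKeap1-2 library 2 (-0.69, adjusted p = 0.0665), the smallest adjusted p of the 19 being 0.000689. With sgKeap1-1 the log2 fold change was -0.53 (SE 0.20, adjusted p = 0.20).
CENPA, the histone H3 variant that marks the centromere, had a CPM of 32.1, 39.1 and 36.5 in sgCtrl, of 35.3, 24.6 and 40.0 with sgKeap1-1, and of 26.8, 18.3 and 21.1 with sgKeap1-2. Its sgKeap1-1 libraries straddled sgCtrl. CENPA fell by 0.71 with sgKeap1-2 (SE 0.21, adjusted p = 0.0464), a call kept in 9 of 19 settings.
MAD2L1, the spindle checkpoint protein MAD2, had a CPM of 38.4, 54.1 and 44.6 in sgCtrl, of 30.5, 34.6 and 43.7 with sgKeap1-1, and of 29.2, 29.5 and 31.5 with sgKeap1-2. It did not share the low values of library 2. MAD2L1 fell by 0.60 with sgKeap1-2 (SE 0.18, adjusted p = 0.0491), a call kept in 6 of 19 settings.
KIF11, the motor that separates the spindle poles, had the largest mitotic difference with sgKeap1-2 without passing the edgeR test. Its CPM was 40.3, 39.8 and 52.1 in sgCtrl and 28.6, 13.9 and 29.3 with sgKeap1-2, where library 2 was under the others by a wide margin (log2 fold change -0.89, SE 0.28, adjusted p = 0.0615). KIF11 passed with DESeq2 (adjusted p = 0.0248) and with the replicate number as a block (0.00118).
MKI67 and TOP2A, much used as markers of proliferating cells, overlapped between the groups, whereas CDK1 did not with sgKeap1-2. MKI67, the Ki-67 antigen, had a CPM of 196, 176 and 214 in sgCtrl, of 188, 107 and 211 with sgKeap1-1, and of 158, 118 and 217 with sgKeap1-2. Library 3 of each group was about the same, and the log2 fold change was -0.21 and -0.25 (SE 0.26 for each). TOP2A, the topoisomerase that untangles chromosomes, had a CPM of 2029, 1732 and 2745 in sgCtrl, of 1768, 852.5 and 2133 with sgKeap1-1, and of 1355, 963.6 and 2187 with sgKeap1-2, and its log2 fold change of -0.45 and -0.53 carried an SE of 0.39 for each (adjusted p = 0.0193 and 0.0046 with the replicate number as a block). CDK1, the kinase of mitotic entry, had a CPM of 90.4, 95.3 and 122 in sgCtrl, of 73.8, 54.5 and 105 with sgKeap1-1, and of 77.6, 51.7 and 80.7 with sgKeap1-2. Its sgKeap1-2 libraries lay below sgCtrl (log2 fold change -0.55, SE 0.23, adjusted p = 0.17). The kinases PLK1 and AURKA stood at -0.41 and -0.22 with sgKeap1-2, and the AURKA activator TPX2 at -0.22, all with overlapping groups.

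The guides were also compared with each other. Of the 52 members, 0 passed the edgeR test between sgKeap1-2 and sgKeap1-1, against 0.0181% of all features, and 2 had an unadjusted p under 0.05 (RFC4 and CENPA), against 2.87% of all features with a lower value at that p. DESeq2 and limma-voom also called 0. The log2 fold change of sgKeap1-2 against sgKeap1-1 was below 0 for 45 of 52 members, against 50.6% of all features, with a median of -0.07 over S phase genes and -0.14 over mitotic genes. With 3 libraries a group and no term for the replicate number, the median SE over the members was 0.27. A difference as small as these medians was therefore not detectable for a single gene in this fit. Both medians turned positive without sgKeap1-2 library 2, to 0.13 over S phase genes and 0.07 over mitotic genes. When both guides were joined against sgCtrl, 3 members passed (5.77%, against 9.64% of all features, or 4.13% for lower and 5.51% for higher calls), namely E2F1 (-0.81, adjusted p = 0.00381), CCNA2 (-0.68, adjusted p = 0.0267) and CCND1 (0.56, adjusted p = 0.0169). Without the libraries numbered 2, 2 members passed (E2F1 and CCND1; 3.85%, against 7.85% of all features), and with the replicate number as a block 25 did, against 14.5% of all features (24 lower, against 6.89%).

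The replicate numbers were compared next, since the low values of library 2 ran through so many members. A test of any difference between the numbers 1, 2 and 3, with the group as a factor, called 27 of the 52 members (51.9%), against 5.59% of all features. The count fell to 3 without sgKeap1-1 library 2 and to 5 without sgKeap1-2 library 2. They were 12 S phase genes, 14 mitotic genes and CDK2, and with the libraries numbered 2 left out the same test of numbers 1 and 3 called 0 members and 0% of all features. The smallest p-values belonged to TPX2 (adjusted p = 0.000667), TOP2A (0.000716), AURKA (0.00106), RRM1 (0.00132) and MCM3 (0.00339). RRM1, the large subunit of ribonucleotide reductase, had a CPM of 312, 253 and 374 in sgCtrl, of 333, 166 and 314 with sgKeap1-1, and of 257, 168 and 332 with sgKeap1-2. TPX2 had a CPM of 251, 224 and 343 in sgCtrl, of 271, 140 and 336 with sgKeap1-1, and of 220, 157 and 327 with sgKeap1-2. In all 3 groups library 2 was the lowest for both genes, but the gap was wider with the KEAP1 guides.
Over the members, library 2 was the lowest of its group for 29 of 52 in sgCtrl (16 of 21 S phase genes but 10 of 26 mitotic genes), against 37% of all features, for 51 with sgKeap1-1, against 37.9%, and for 47 with sgKeap1-2, against 33.5%. Its log2 CPM minus the mean of libraries 1 and 3 had a median over S phase genes of -0.29 in sgCtrl, -0.90 with sgKeap1-1 and -0.62 with sgKeap1-2. Over mitotic genes the medians were -0.17, -0.83 and -0.68. With the KEAP1 guides the exceptions were few, but in sgCtrl they were many, above all among the mitotic genes. MAD2L1, for instance, was at 0.38, -0.07 and -0.04 in the 3 groups. The difference between KEAP1 guide groups and sgCtrl in this gap was tested as an interaction, added after the values were seen, and it called 0 members and 0% of all features. At an unadjusted p under 0.05, 17 members were lower, against 2.31% of all features, and the median over the members was -0.54. That test rests on 2 KEAP1 guide libraries against 1 sgCtrl library and on the same values that prompted it, so it restates the gap and adds no separate support. Between libraries of the same number, the median over mitotic genes of sgKeap1-1 minus sgCtrl was -0.02 for number 1, -0.77 for number 2 and -0.24 for number 3, and of sgKeap1-2 minus sgCtrl it was -0.25, -0.85 and -0.50. Over S phase genes these medians were -0.25, -0.85 and -0.18 with sgKeap1-1 and -0.36, -0.64 and -0.28 with sgKeap1-2. The shared prefix of each number reads like a date, but the labels do not say what was done then, so culture, cell density and library preparation cannot be told apart.

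**Figure D4:**
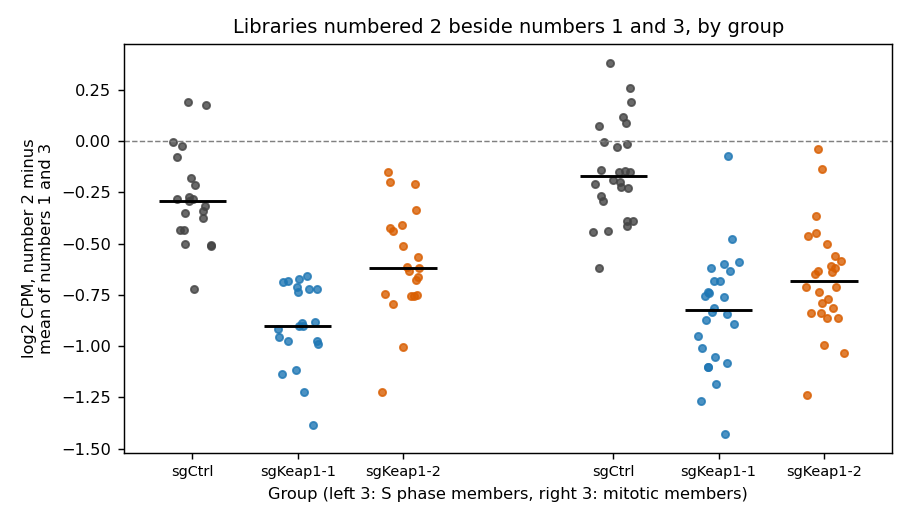
For each S phase (left 3 columns) and mitotic gene (right 3 columns), the log2 CPM of library 2 minus the mean of libraries 1 and 3 of the same group, with black lines at the medians. The sgCtrl points lie around -0.29 and -0.17, and the points of both KEAP1 guide groups lie below 0 throughout, with medians from -0.62 to -0.90.

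Further genes of the same processes were taken from longer lists. Of 41 other replication genes, 40 were tested, and 0 passed with sgKeap1-1 and 7 fell with sgKeap1-2 (17.5%, against 4.85% of all features), at medians of -0.29 and -0.42 on the log2 scale. With sgKeap1-1, 7 were lower at an unadjusted p under 0.05, against 6.63% of all features. DESeq2 called 1 (2.5%, against 1.8%) and limma-voom 0 (against 1.36%). With the replicate number as a block, 3 and 19 were called (7.5% and 47.5%, against 3.72% and 8.57%). Without the libraries numbered 2, 5 were called with sgKeap1-2 (12.5%, against 3.62% of all features called lower). The 7 genes called with sgKeap1-2 were PRIM1, GMNN, RFC1, ORC6, RFC5, TYMS and UHRF1. PRIM1, the primase subunit that starts each new strand, had a CPM of 24.4, 18.03 and 16.2 in sgCtrl, of 14.1, 11.8 and 13.4 with sgKeap1-1, and of 8.31, 7.80 and 11.1 with sgKeap1-2. Its groups did not overlap with either guide, library 2 did not stand apart, and PRIM1 fell by 1.10 on the log2 scale with sgKeap1-2 (SE 0.24, adjusted p = 0.00841). GMNN, geminin, which keeps origins from firing again, fell by 0.60 with sgKeap1-2 (adjusted p = 0.0156), and RFC1, the large clamp loader subunit, by 0.58 (adjusted p = 0.0165). ORC6, of the origin recognition complex, fell by 0.75 (adjusted p = 0.0228). Of 19 alternative settings, the call was kept in 18 for PRIM1, 17 for RFC1 and 16 each for GMNN and ORC6. The largest adjusted p was 0.0553, 0.103, 0.0719 and 0.121 in that order.
Of 50 other mitotic genes, 47 were tested, and 1 fell with sgKeap1-1 (2.13%, against 1.4% of all features) and 9 with sgKeap1-2 (19.1%, against 4.85%), at a median of -0.32 and -0.53. Blocking on the replicate number gave counts of 7 and 24 (14.9% and 51.1%, against 3.72% and 8.57% of all features). Without the libraries numbered 2 they were 1 and 6 (2.13% and 12.8%, against 1.15% and 3.62% of all features). KIF20B, a motor of cytokinesis, was the gene called with both guides. Its CPM was 187, 177 and 211 in sgCtrl, 135, 94.99 and 132 with sgKeap1-1, and 115, 87.1 and 130 with sgKeap1-2. Every KEAP1 guide library lay below every sgCtrl library, and KIF20B fell by 0.67 (SE 0.17, adjusted p = 0.0391) and 0.79 (SE 0.17, adjusted p = 0.00745). The call with sgKeap1-1 was kept in 11 of 19 alternative settings (adjusted p from 0.000534 to 0.176), and the call with sgKeap1-2 in 19. The kinesin KIF18B (-1.27), the spindle protein CKAP2L (-0.91) and the condensin subunit SMC4 (-0.72) also fell with sgKeap1-2. KIF18B kept its call in 19 of 19 alternative settings, and CKAP2L and SMC4 in 17 each.

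A few of the genes that restrain the cycle, or that drive it in G1, differed widely. These lists as a whole stood nearer to 0 than the members. The median log2 fold change of 20 brakes tested was -0.05 with sgKeap1-1 and -0.19 with sgKeap1-2, with 11 and 14 below 0. Of these, the CDK inhibitors CDKN1A and CDKN2A rose with both guides (10%, against 2.8% and 5.96% of all features called higher). CDKN2B was called as well, but it passed the filter on low counts only through the KEAP1 guide libraries and is therefore not counted here. CDKN1A, which encodes p21, had a CPM of 66.5, 64.0 and 69.7 in sgCtrl, of 119, 98.9 and 93.1 with sgKeap1-1, and of 126, 118 and 131 with sgKeap1-2. The groups were separate and library 2 did not stand apart. CDKN1A rose by 0.64 on the log2 scale with sgKeap1-1 (SE 0.13, adjusted p = 0.0111) and by 0.90 with sgKeap1-2 (SE 0.13, adjusted p = 0.000407), or 1.55-fold and 1.87-fold. With sgKeap1-1 the call was lost in 3 of 19 alternative settings, among them the one without the libraries numbered 2, where the value was again 0.64.
CDKN2A, the locus of p16 and p14ARF, whose shared last exon does not let transcript ends be told apart, had a CPM of 9.80, 13.3 and 11.2 in sgCtrl, of 49.5, 46.4 and 48.1 with sgKeap1-1, and of 63.4, 57.1 and 44.8 with sgKeap1-2. It rose 4.22-fold and 4.84-fold (adjusted p = 1.39e-05 and 2.76e-06). CDKN2B, its neighbour, which encodes p15, had 3, 5 and 5 reads in sgCtrl, 30, 34 and 26 with sgKeap1-1, and 27, 32 and 43 with sgKeap1-2. Its log2 fold change was 2.47 (SE 0.37) and 2.77 (SE 0.36), values that rest on few sgCtrl reads. CDKN1B, which encodes p27, had a CPM of 45.3, 57.9 and 57.4 in sgCtrl and of 36.9, 38.5 and 46.3 with sgKeap1-2, with overlap and no call (-0.39, adjusted p = 0.18). Of the other brakes, WEE1 is counted as lower with sgKeap1-2, where edgeR, DESeq2, limma-voom and the replicate block called it. It was the 1 brake that limma-voom called lower there (5%, near the 4.65% of all features). WEE1, the kinase that holds CDK1 inactive, fell by 0.96 with sgKeap1-2 (adjusted p = 0.016), a call kept in 17 of 19 settings. With the replicate number as a block, it also passed with sgKeap1-1 (5% of the brakes called lower, against 3.72% of all features). E2F8, a repressor of E2F targets, was called as well, at -2.05 (adjusted p = 0.0292) on 4 to 33 reads per library. It passed the filter minimum in 3 sgCtrl libraries but in 1 sgKeap1-2 library, and is therefore not counted.
Of 12 G1 drivers tested, 8 lay below 0 with each guide (median -0.10 and -0.21). CCND3 rose with both guides (8.33%, against 2.8% and 5.96% of all features called higher), and SKP2 and E2F2 fell with sgKeap1-2 (16.7%, against 4.85% called lower). CCND3, cyclin D3, had a CPM of 7.15, 10.6 and 10.6 in sgCtrl, of 37.3, 24.4 and 24.5 with sgKeap1-1, and of 33.6, 29.3 and 38.3 with sgKeap1-2. It rose by 1.61 (SE 0.24, adjusted p = 0.000961) and 1.84 (SE 0.24, adjusted p = 0.000147) on the log2 scale and kept both calls in all 19 alternative settings. CCND2, cyclin D2, had a CPM of 1.59, 3.06 and 1.95 in sgCtrl, of 13.2, 5.45 and 8.94 with sgKeap1-1, and of 20.01, 8.05 and 17.7 with sgKeap1-2, so that library 2 was again the lowest with the KEAP1 guides. With 6 to 9 reads per sgCtrl library, CCND2 too reached the test through the KEAP1 guide libraries, and it is not counted. Its log2 fold change was 2.07 (SE 0.47) and 2.80 (SE 0.46). SKP2, the ubiquitin ligase subunit that removes p27, had a CPM of 106, 110 and 129 in sgCtrl, of 73.8, 50.1 and 89.4 with sgKeap1-1, and of 67.1, 48.0 and 68.6 with sgKeap1-2, without overlap. SKP2 fell by 0.91 with sgKeap1-2 (SE 0.20, adjusted p = 0.00868) and stood at -0.70 with sgKeap1-1 (SE 0.20, adjusted p = 0.0665). With sgKeap1-1 it passed in 5 of 19 alternative settings, among them DESeq2 and the replicate block. Blocking on the number called 1 and 4 drivers lower with the guides in turn (8.33% and 33.3%, against 3.72% and 8.57% of all features). E2F2, a relative of E2F1, fell by 1.19 with sgKeap1-2 (SE 0.34, adjusted p = 0.0397), a call kept in 13 of 19 settings (0.00157 to 0.136).

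**Figure D5:**
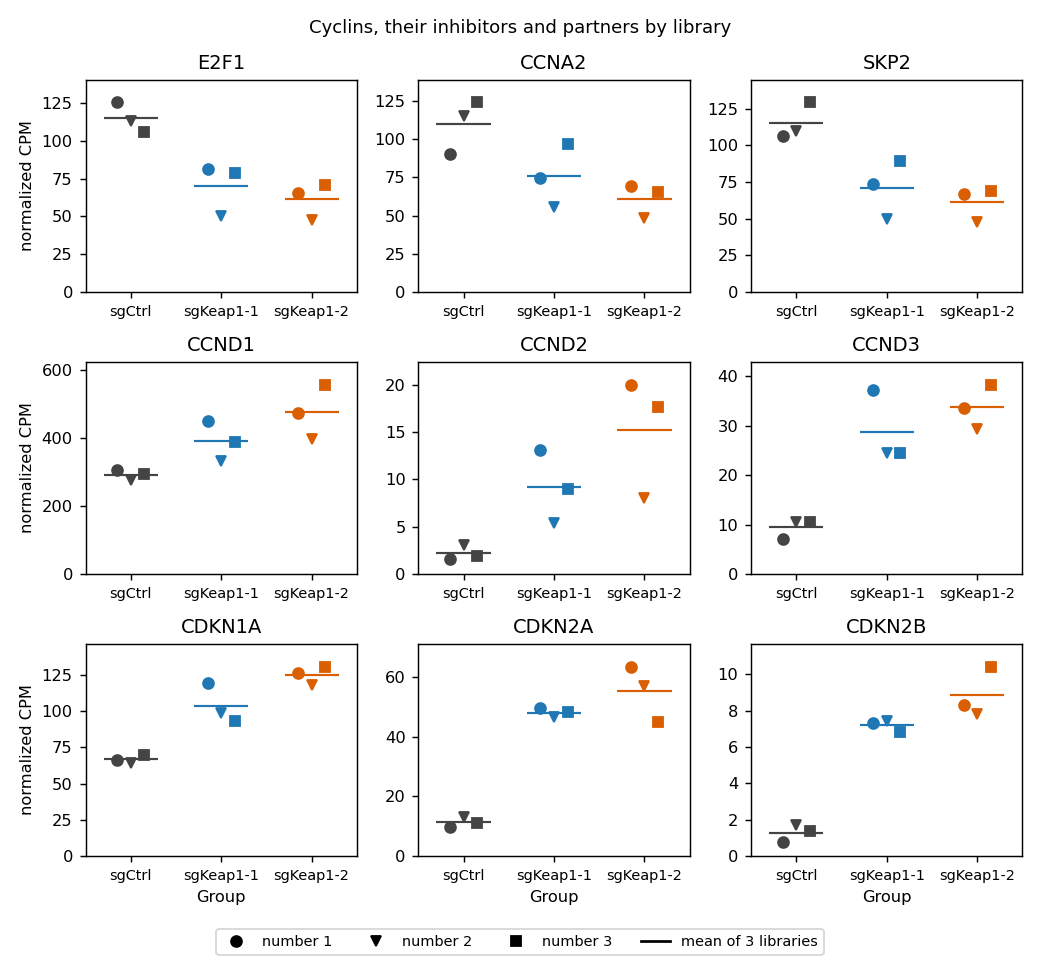
Normalized CPM of 9 regulators by library, with circles, triangles and squares for the replicate numbers 1 to 3, lines at the group means (n = 3) and axes that start at 0. E2F1, CCNA2 and SKP2 (top row) have lower means with the KEAP1 guides, with CCNA2 of sgKeap1-1 overlapping sgCtrl. The D cyclins (middle row) and CDKN1A, CDKN2A and CDKN2B (bottom row) have higher means. CCND2 and CDKN2B reached the test through the KEAP1 guide libraries. CDKN1B, a CDK inhibitor not drawn here, lay below 0 with both guides, without a call.

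Hepatocyte markers differed between the same groups, whereas the sums of the fibroblast and leukocyte markers measured overlapped. The summed CPM of the 14 hepatocyte markers ran from 44825 to 57278 in sgCtrl, from 30608 to 40197 with sgKeap1-1 and from 26928 to 31127 with sgKeap1-2, and 7 and 9 of the 14 fell (50% and 64.3%, against 1.4% and 4.85% of all features) while TTR rose with both (7.14%, against 2.8% and 5.96%). Of 8 fibroblast markers 2 were measured, COL1A1 and PDGFRB, with sums of 8.21 to 15.0, 6.84 to 12.8 and 6.16 to 15.8 in the groups in turn. Of 6 leukocyte markers 4 were measured, nearly all of the sum being LYZ, with 971.2 to 1816, 1003 to 2547 and 688.8 to 1544, whereas PTPRC and CD3E were not measured here, nor was any of 5 endothelial markers. LYZ was highest in library 2 of each group, at 1796, 2537 and 1532. The part of these differences in the values of the cell cycle genes was not tested.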

How the data were processed

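RNA was measured in 9 HepG2 libraries, 3 per group. The authors trimmed single-end QuantSeq reads (cutadapt 1.16), aligned them with STAR 2.7.5b, counted them with featureCounts 1.6.3 and deposited raw read counts per feature, without normalization. The methods name GRCh37 and the submitters' processing notes name hg38, so no coordinates were taken from the counts. The annotation, strand setting and low-count filter are not given in the sources used here. All 12798 features had over 0.5 CPM in at least 3 libraries, and the 1052 without an Entrez number (1.34% of reads) were left out.

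Features kept by filterByExpr were scaled by TMM and tested in 1 fit of all 9 libraries with edgeR's quasi-likelihood test (edgeR 4.0.16, R 4.3.3), with Benjamini-Hochberg adjustment over all 11064 features and a threshold of 0.05. A further fit joined both guides, and another tested the replicate numbers. Standard errors come from each log2 fold change and its F statistic (the ratio of the former to the root of the latter). The depth of 3051755 to 4793757 reads limits genes with few reads, and no 2 libraries of a group agreed within sampling noise. The tests were also run on simulated counts that held no difference between replicate numbers. That run therefore does not bear on the low values of the libraries numbered 2.

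Named members were those past the threshold, the 3 most abundant of each role, the 3 with the largest difference in each contrast, the 5 with the smallest p between replicate numbers, and PCNA, MKI67, CCND1, CDK1, TOP2A and MCM2. From the other lists at most 4 genes past the threshold were named by rule, with KEAP1, CDKN1A and CDKN1B always. CDC45, CCNE1, CCNE2, RFC5, TYMS, UHRF1, E2F8, NRF2 targets and marker genes were named after their values were seen. The members and lists were chosen with earlier results of these data known. The alternatives were a replicate block, other scalings, filters and tests (DESeq2 1.42.0, limma-voom with limma 3.58.1), fits of the 2 groups compared, and each library left out in turn.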

Additional observations from a re-analysis of the deposited data

How the results depend on the processing

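The direction of the medians over S phase, G1/S and mitotic genes against sgCtrl was the same in every setting run. With each library left out in turn, the median with sgKeap1-1 ran from -0.55 to -0.07 over S phase genes and from -0.57 to -0.15 over mitotic genes, nearest to 0 without sgKeap1-1 library 2. With sgKeap1-2 it ran from -0.61 to -0.23 and from -0.73 to -0.28, nearest to 0 without sgKeap1-2 library 2. Between the guides it ran from -0.30 to 0.13 over S phase genes, from -0.23 to 0.21 over G1/S genes and from -0.37 to 0.07 over mitotic genes. Its direction between the guides thus depended on single libraries.

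The counts of called members moved more. With sgKeap1-1 (1 member), 0 were called without scaling beyond library size, with limma-voom, with at least 10 counts in every library, with the features without an Entrez number kept and without the libraries numbered 2, and 0 to 1 with single libraries left out. The settings with unnumbered features and without the libraries numbered 2 were chosen after seeing the data. With sgKeap1-2 (6 members), 3 were called without scaling, 3 with at least 10 counts and 3 with limma-voom (5.77%, against 10.1% of all features). With single libraries left out, 2 to 12 were called, from 2 without sgCtrl library 3 to 12 without sgKeap1-1 library 2. DESeq2 called 9 (17.3%, against 11.6% of all features). For the settings listed without a percentage, the share over all features is not given here. With both guides joined (3 members), 1 to 9 were called with single libraries left out. Between replicate numbers (27 members), 0 were called without the libraries numbered 2 and 3 to 34 with single libraries left out, 3 without sgKeap1-1 library 2 and 5 without sgKeap1-2 library 2. The comparison of the guides gave 0 in all settings. The causes were not tested. Of 46 calls of single named genes, counted per gene and contrast and with 6 of CDKN2B and CCND2 among them, 25 were lost in at least 1 setting, and of 106 gene and contrast pairs without a call 27 gained one in at least 1 setting.

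With the replicate number as a block, 10 members were called with sgKeap1-1 (9 lower), 29 with sgKeap1-2 (28 lower) and 25 with both guides joined (24 lower). The labels give the libraries of a number a shared prefix but do not state a pairing. Deviations from the group means correlated at -0.01 to 0.52 between same-numbered libraries, and at 0.34 to 0.52 between those numbered 2. The pairs under 0.1 were those of sgKeap1-2 library 1, and not every library correlated best with its own number. The block was therefore kept as an alternative. The main fit, which lacks it, counts differences between the numbers as spread within groups. Groups of 3 libraries, and SEs near 0.27 in the fit without the block, limit what single members can show in that fit.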
